A study of Mus musculus with 178 samples.

Results

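The heat shock chaperone genes are 10 genes whose products fold, refold or hold proteins: Hspa1a, Hspa1b and Hspa8 of the HSP70 family, Hsph1 (HSP110) and Dnajb1 (a J protein), Hsp90aa1 and Hsp90ab1 (HSP90), the small heat shock protein gene Hspb1, and Hspd1 and Hspe1, the HSP60 and HSP10 subunits of the mitochondrial chaperonin. They were taken by symbol from the 55450 genes of the count table. The set was chosen by measured values, those of Hspa1b, which was higher on Day 17 than on Day 4 in responders, so the values of that contrast, and of every contrast that shares those responder libraries, are given here as a description with no test. Blood was drawn from 45 C57BL/6J mice of both sexes, young adults by the study's methods, that carried orthotopic 4MOSC1 tumors (a carcinogen-induced oral squamous carcinoma line grown in the tongue or buccal mucosa) and that were all given antiPD1 treatment, an antibody that blocks the PD-1 checkpoint receptor. There was no untreated or tumor-free group, so tumor growth, treatment and repeated bleeding cannot be told apart in a change over days. Responders numbered 15 mice and non-responders 30, and blood was taken before treatment on Day 4 (15 responders, 29 non-responders) and on treatment on Day 9 (15 and 30), Day 17 (14 and 30) and Day 24 (15 and 30), which gave 178 libraries.

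The samples carry ear tags of either 3 or 4 digits, and response was not spread evenly over these 2 series. Mice with 4-digit tags were 11 responders and 7 non-responders, and mice with 3-digit tags were 4 responders and 23 non-responders. The labels do not say what the series stand for, so it is called here the ear tag series, and results are given within each. Total counts ran from 26058944 to 82208651 per library, with haemoglobin transcripts at 68.7% to 88% of counts. Levels are CPM, the count relative to library size after scaling by TMM factors, so summed CPM depends on the scaling and is not a share of a library. Markers of erythroid cells, neutrophils, monocytes, T, B and NK cells and platelets were all detected, as blood should have. One library of a non-responder on Day 17 (non-responder 24) was labelled a responder although the other libraries of the same mouse were not, and this mouse was kept whole among the non-responders. The Day 24 library of non-responder 29 stood apart, with a TMM factor of 0.0848 against 0.266 for the next lowest. In blood RNA, fewer cells of a type and less RNA per cell cannot be told apart.

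Heat shock proteins of the HSP70 class bind unfolded stretches of other proteins and release them in a cycle that J proteins start and HSP110 proteins reset by exchanging the nucleotide. HSP90 acts later, on clients such as kinases and steroid receptors, and small heat shock proteins hold unfolded proteins without using ATP. Heat, oxidants and other stress free the transcription factor HSF1, which binds repeats of nGAAn upstream of these genes. Hspa8 and Hsp90ab1 are the constitutive forms, and Hspa1a and Hspa1b are the strongly inducible ones, with almost the same protein product and no introns.

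Hspa1b lies on chromosome 17 of GRCm38 at 34956436 to 34959238 on the minus strand, and Hspa1a at 34969190 to 34972156 on the same strand. The 250 bases upstream of each start, from RefSeq on GRCm38.p6, are shown because these 2 near-identical copies are the inducible HSP70 genes that were called higher in non-responders. Capitals mark the HSF1-type pair GAANNTTC. 
Hspa1b, chr17:34959239-34959488, minus strand: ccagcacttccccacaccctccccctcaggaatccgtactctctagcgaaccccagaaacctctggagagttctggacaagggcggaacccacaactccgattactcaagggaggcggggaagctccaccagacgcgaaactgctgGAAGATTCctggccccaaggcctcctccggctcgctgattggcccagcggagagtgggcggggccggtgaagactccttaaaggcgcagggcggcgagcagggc
Hspa1a, chr17:34972157-34972406, minus strand: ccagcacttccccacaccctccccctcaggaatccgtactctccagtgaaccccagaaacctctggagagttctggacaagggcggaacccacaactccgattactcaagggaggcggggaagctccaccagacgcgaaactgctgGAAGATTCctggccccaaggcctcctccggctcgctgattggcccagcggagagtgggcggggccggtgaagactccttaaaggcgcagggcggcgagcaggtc
The 2 stretches are identical at 247 of 250 positions (98.8%), and each holds 1 pair motif, whose first base lies at -104 from the start. The pair motif (GAANNTTC or TTCNNGAA, which each read the same on both strands) was found in 12.8% of 32851 RefSeq windows of 250 bases, and the longer triple motif (GAANNTTCNNGAA or TTCNNGAANNTTC) in 0.466%. Windows were given for 7 of the 10 members, not for Hspa8, Hsp90aa1 or Hsp90ab1.

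Hspd1 and Hspe1 lie head to head on chromosome 1 (55077835 to 55088243 on the minus strand and 55088132 to 55091307 on the plus strand) and the RefSeq upstream window of Hspe1 overlaps that of one of the 2 RefSeq starts of Hspd1. The element in it is shown because it holds the triple motif, in capitals, in a run of 18 bases whose first base lies at -89 from the RefSeq start of Hspe1. It lies within the annotated span of Hspd1, and all of that Hspe1 window falls in annotated exons. 
Hspe1, chr1:55088053-55088082, plus strand: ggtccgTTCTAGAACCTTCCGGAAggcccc
Hspb1 (chromosome 5, 135887919 to 135889563, plus strand) had 2 pair motifs, at -117 and -97. None was found upstream of Dnajb1 (chromosome 8, 83608193 to 83612653, plus strand) in the windows searched, and Hsph1 (chromosome 5, 149614287 to 149636376, minus strand) had 1, at -33 and -54 from its 2 RefSeq starts. A match is only a match of letters. The other members lie on chromosome 9 (Hspa8, 40800984 to 40810087, plus strand), chromosome 12 (Hsp90aa1, 110690605 to 110702728, minus strand) and chromosome 17 (Hsp90ab1, 45567775 to 45573271, minus strand). All 10 are protein-coding genes.

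Near-identical copies limit what the counts can separate. Of the stretches of 100 bases along the transcript of Hspa1a, 48.6% also occur in another gene, nearly all of them in Hspa1b (47.1%), and 49.9% of those of Hspa1b occur in Hspa1a. Hspa8 shares 62.8% of its stretches, mostly with the processed copy Gm15459 (58.5%), Hsp90aa1 47.5% and Hspb1 42.7%, whereas Hsph1, Dnajb1 and Hsp90ab1 share none. Hspa1a also overlaps exons of Gm20481 on the other strand. The split of reads between Hspa1a and Hspa1b is therefore uncertain, and the fit of their summed counts is given beside the comparisons over all mice. It was not run within or between the ear tag series.

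The constitutive members dominated. On the TPM scale, which divides by length, Hspa8 was highest with a median of 35.7 TPM over 178 libraries, followed by Hsp90ab1 (20.8), Hsp90aa1 (4.79), Hspe1 (3.56), Hspd1 (2.58), Hsph1 (1.52) and Dnajb1 (1.18). The inducible pair lay far lower, at a median of 0.07 TPM for Hspa1b and 0.045 TPM for Hspa1a, and Hspb1 was lowest at 0.02 TPM. Hspa8 was above Hsp90ab1 in 177 of 178 libraries and Dnajb1 above Hspa1b in 178. The order was less firm lower down, with Hsph1 above Dnajb1 in 146, Hspa1b above Hspa1a in 137 and Hspa1a above Hspb1 in 134. The inducible genes rest on few reads, with a median count of 24 for Hspa1b and 15 for Hspa1a per library. Hspb1 had a median count of 2, was at 0 in 46 libraries and did not pass the filter on low counts, so 9 of the 10 members were tested. Its highest value was 1.08 CPM, in a Day 9 library of a non-responder.

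**Figure D1:**
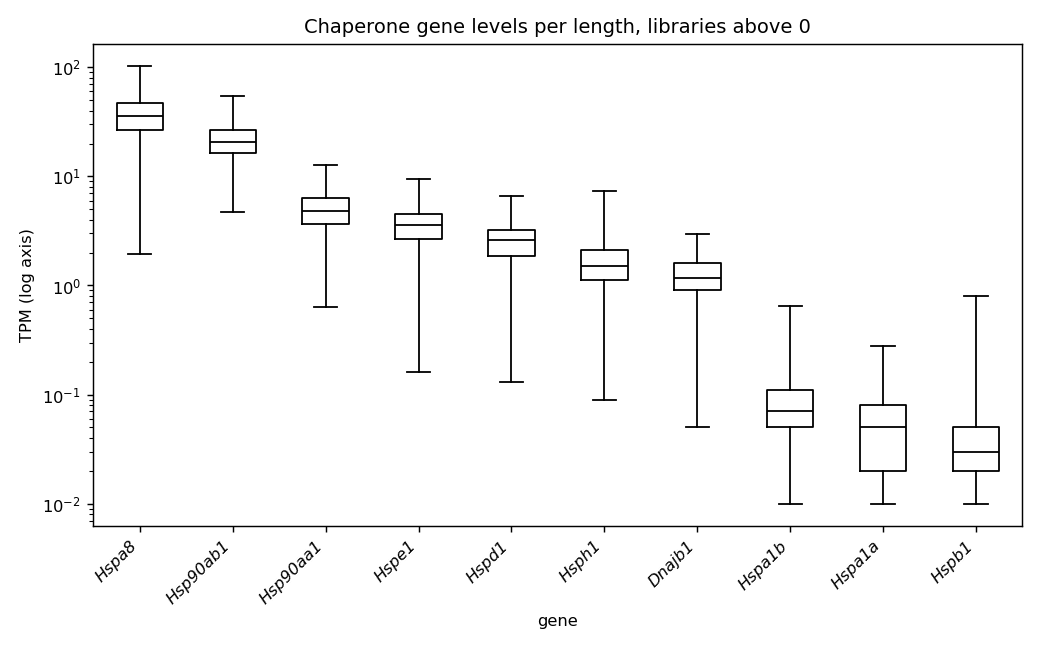
TPM of the 10 genes on a log axis. Boxes span the quartiles with the median as a line, and whiskers reach the lowest and highest library, over libraries above 0 (Hspa1a and Hspa1b are at 0 in 1 library each and Hspb1 in 46). Hspa8 and Hsp90ab1 lie at the top, and Hspa1a, Hspa1b and Hspb1 at the bottom.

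The coefficient of variation of CPM over the 178 libraries was 94.3% for Hspa1b, 86.8% for Hspa1a and 55.3% for Hsph1, against 17% to 30.3% for the 6 other members that were tested. These libraries include the responder libraries of Days 4 and 17 whose values chose the set, so the high rank of Hspa1b is partly fixed by that choice. Most of the high-level members moved together across libraries, Hspe1 less so. Spearman's rho of Hspa8 over the 178 libraries was 0.825 with Hsp90ab1, 0.809 with Hsph1, 0.785 with Dnajb1, 0.78 with Hspd1 and 0.775 with Hsp90aa1, but 0.591 with Hspe1. Hspa1b followed Hspa1a at 0.638 and Hsph1 at 0.393, but Hspe1 at only 0.0666. Within the groups of response and day, Hspa1b reached 0.669 with Hspa1a, 0.619 with Hsph1 and 0.168 with Hspe1. These libraries share mice and scaling, so the values are a description. Outside the members, the genes most like Hspa8 were Stip1 (0.854), an adaptor between HSP70 and HSP90, Fkbp4 (0.828), an HSP90 co-chaperone, Gm15459 (0.784), Cct4 (0.751) and Ywhab (0.729). Those most like Hspa1b were Cpeb2 (0.567), Dgat2 (0.564), Gm4070 (0.556), Arrdc4 (0.552) and Fosl2 (0.552), all of them weaker. This order rests on pooled libraries whose group means differ. Within the groups these genes had 0.424, 0.42, 0.391, 0.444 and 0.5 in the same order, so that Fosl2 was the highest among them.

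The rule that chose the genes uses no non-responder library, although the genes were proposed with earlier results of these data known. The change of non-responders from Day 4 to Day 9, before against early on treatment, was tested first. Hspa1a and Hspa1b rose and 4 other members fell. Hspa1b had 0.0542, 0.266 and 0.707 CPM (lowest, median, highest) on Day 4 and 0.224, 0.57 and 2.55 CPM on Day 9, and 12 of 30 Day 9 libraries lay above every Day 4 library. Its log2 fold change was 1.31 (SE 0.23, edgeR adjusted p = 3.80e-07), and it was higher in 22 of 29 mice. Hspa1a went from 0, 0.208 and 0.556 CPM to 0.0604, 0.409 and 1.19 CPM, a log2 fold change of 1.09 (SE 0.24, edgeR adjusted p = 7.75e-05), and their sum rose by 1.22 (SE 0.22). Against this, Hspe1 fell by 0.34 on the log2 scale (SE 0.07, edgeR adjusted p = 7.52e-06), from a median of 4.46 CPM to 3.8 CPM. Hspa8, the constitutive HSP70, fell by 0.23 (SE 0.09, edgeR adjusted p = 0.022), Hspd1 by 0.16 (adjusted p = 0.00428) and Dnajb1 by 0.16 (adjusted p = 0.0339). In 4-digit mice alone none of these 4 had a fitted change below 0, and none was called. Hspa8 was at 0.22, Dnajb1 at 0.09, Hspd1 at 0.05 and Hspe1 at 0.00. The 4-digit median still went down for Hspa8 (156 CPM to 142 CPM) and Hspd1 (11.8 CPM to 10.7 CPM). It went up for Dnajb1 (6.94 CPM to 6.98 CPM) and Hspe1 (4.21 CPM to 4.38 CPM). Non-responders 25 and 26 held the highest Day 9 values of Hspa8 and Hspd1. Over all non-responders, 2 of 9 members were called higher and 4 lower at an adjusted p of at most 0.05. Of all 13009 genes 50.8% were called (23.3% higher, 27.5% lower). The count of members is thus not apart from the genes as a whole. With mouse as a block, Hsph1 (-0.34, adjusted p = 0.0205) and Hsp90ab1 (-0.20, adjusted p = 0.0258) were called lower as well.

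**Figure D2:**
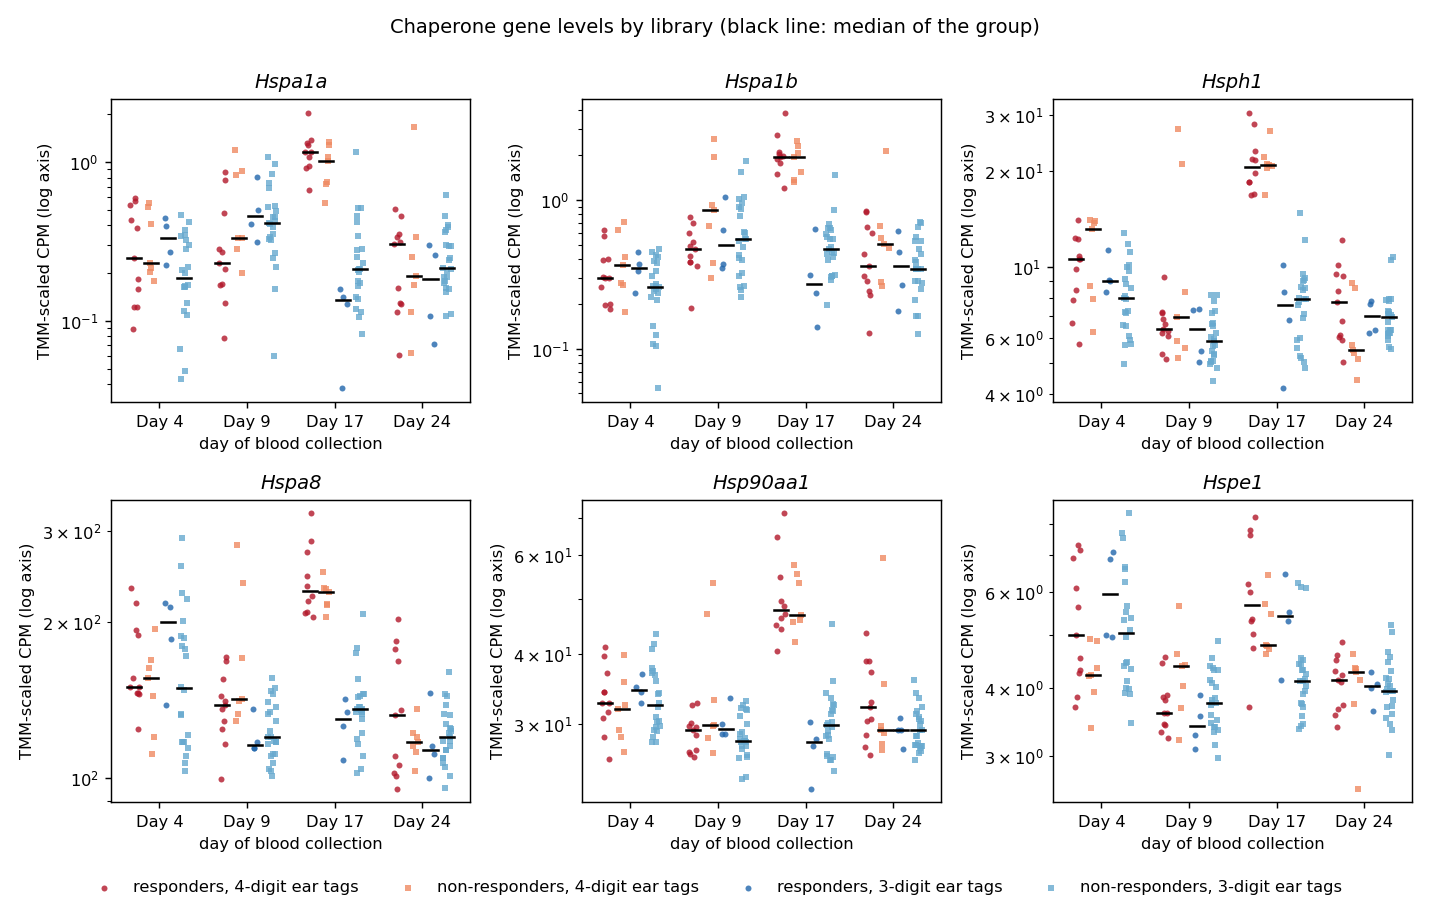
CPM (log axis) of 6 genes in each library by day. Points are libraries, circles for responders and squares for non-responders, red shades for 4-digit and blue for 3-digit ear tags, and black lines are group medians (a library at 0 cannot be drawn). On Day 17 the red groups of Hsph1 sit between 16.8 and 30.4 CPM, above all blue points, which reach 14.8 CPM.

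The Day 9 libraries of non-responders were uneven. Non-responders 25 and 26, both with 4-digit tags, held the 2 highest Hsph1 values, 27 and 21.1 CPM against a median of 5.9 CPM, and the 2 highest of Hspa8, 282 and 238 CPM against a median of 129 CPM. They were also the highest for Hsp90aa1 (53.4 and 47.2 CPM), Hsp90ab1 (187 and 167 CPM) and Hspa1b (2.55 and 1.93 CPM against a median of 0.57 CPM). Without non-responder 26, all 9 members were called on Day 9, and without non-responder 4 only 4 were. Marker genes moved over the same days, with 9 of 10 neutrophil markers and 10 of 10 monocyte markers called higher, and 10 of 10 T cell, 10 of 10 B cell and 10 of 10 platelet markers called lower. Immediate early genes, which respond within minutes to many stimuli, rose in 10 of 10, from a median summed level of 40.5 CPM to 69.1 CPM. Their part in the change of the chaperone genes was not tested.

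From Day 4 to Day 17, Hspa1a and Hspa1b were again higher in non-responders. Hspa1b reached 0.198, 0.556 and 2.48 CPM (lowest, median, highest), a log2 fold change of 1.42 (SE 0.23, edgeR adjusted p = 1.22e-07), and was higher in 26 of 29 mice. Hspa1a reached 0.0827, 0.267 and 1.34 CPM, a log2 fold change of 0.89 (SE 0.25, edgeR adjusted p = 0.00184), a call not held in 3-digit mice alone (0.48, SE 0.26, adjusted p = 0.118). Their summed counts gave 1.22 (SE 0.22, adjusted p = 1.74e-06). Hspe1 fell by 0.17 (SE 0.07, edgeR adjusted p = 0.0377), and Hsph1, at 0.30 (SE 0.15, adjusted p = 0.0867), was not called. In all, 2 members were called higher and 1 lower, against 46.1% of all genes (21.9% higher, 24.2% lower). Over the same days 7 of 10 neutrophil, 7 of 10 monocyte and 4 of 9 erythroid markers and 4 of 10 immediate early genes were called higher. Called lower were 10 of 10 T cell, 8 of 10 B cell and 8 of 10 NK cell markers, 1 neutrophil marker and 1 immediate early gene. Their part was not tested. These pooled values join 2 series of mice that differ, as given further on.

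On Day 24 the inducible pair was not called against Day 4, and 4 of the other members were lower. Hspa1b had a median of 0.365 CPM (log2 fold change 0.42, SE 0.24, edgeR adjusted p = 0.136 against Day 4), although it was higher than on Day 4 in 23 of 29 mice, with a median within-mouse change of 0.44. Hspa1a had a median of 0.213 CPM (0.14, SE 0.26, adjusted p = 0.688), and their summed counts gave 0.31 (SE 0.23, adjusted p = 0.26). Hspa8 had 95.5, 119 and 160 CPM and fell by 0.41 (SE 0.09, edgeR adjusted p = 7.21e-05), and only 1 of 30 libraries lay above the Day 4 median of 150 CPM. Hsph1 fell by 0.37 (adjusted p = 0.033), a call not held within either ear tag series. It was at -0.21 (adjusted p = 0.0601) in 3-digit and -0.83 (adjusted p = 0.134) in 4-digit mice. Hspe1 fell by 0.31 (adjusted p = 9.35e-05), but was at -0.05 (SE 0.11, edgeR adjusted p = 0.875) in 4-digit mice alone. Hspd1 fell by 0.23 (adjusted p = 4.89e-05), with 18 of 30 libraries below every Day 4 library. In 4-digit mice alone Hspd1 was at -0.23 and not called (edgeR adjusted p = 0.274). Dnajb1 was not called (adjusted p = 0.25), with 15 of 30 libraries above its Day 4 median. No member was called higher and 4 lower, against 48.7% of all genes (23.8% higher, 24.8% lower). Of the cell markers, 10 of 10 NK cell, 9 of 10 platelet and 8 of 10 T cell ones were called lower on Day 24 and 8 of 9 erythroid ones higher, and their part was not tested. With mouse as a block, Hsp90ab1 was called as well (-0.22, adjusted p = 0.0131). The odd Day 24 library of non-responder 29 held 346 CPM of Hsp90ab1 against a group median of 98.1 CPM, and without it Hsp90aa1 (-0.18) and Hsp90ab1 (-0.30) were also called lower.

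Between Day 9 and Day 24, both on treatment, Hspa1b fell by 0.89 (SE 0.22, edgeR adjusted p = 6.06e-04) and Hspa1a by 0.95 (SE 0.24, adjusted p = 8.41e-04) in non-responders, and their sum fell by 0.91 (SE 0.21, adjusted p = 2.68e-04). They were the 2 members called, against 41.8% of all genes (21.2% higher, 20.6% lower). In 4-digit mice alone neither was called (Hspa1b -1.13, adjusted p = 0.0748, and Hspa1a -1.39, adjusted p = 0.0546) and Hspa8 was the 1 member called (-0.58, SE 0.15, edgeR adjusted p = 0.0166). Over the same days 9 of 10 immediate early genes, 10 of 10 monocyte, 9 of 10 neutrophil and 9 of 10 NK cell markers were called lower, and 10 of 10 T cell, 9 of 10 B cell and 8 of 9 erythroid markers higher. Their part in the fall of the pair was not tested. In responders, Hspa1b changed by -0.30 (SE 0.30) and Hspa1a by -0.62 (SE 0.37), their sum by -0.43 (SE 0.30), and no member was called (19% of all genes), nor was any at an unadjusted p under 0.05 by edgeR or adjusted by DESeq2. The difference of the 2 changes was tested as an interaction, and edgeR called no member, against 0.095% of all genes, while 1 member, Hspd1 (0.18, SE 0.09, unadjusted p = 0.0383), was under an unadjusted p of 0.05 and DESeq2 called none. The summed pair differed by 0.48 (SE 0.38, edgeR adjusted p = 0.606). The groups were thus not shown to differ.

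**Figure D3:**
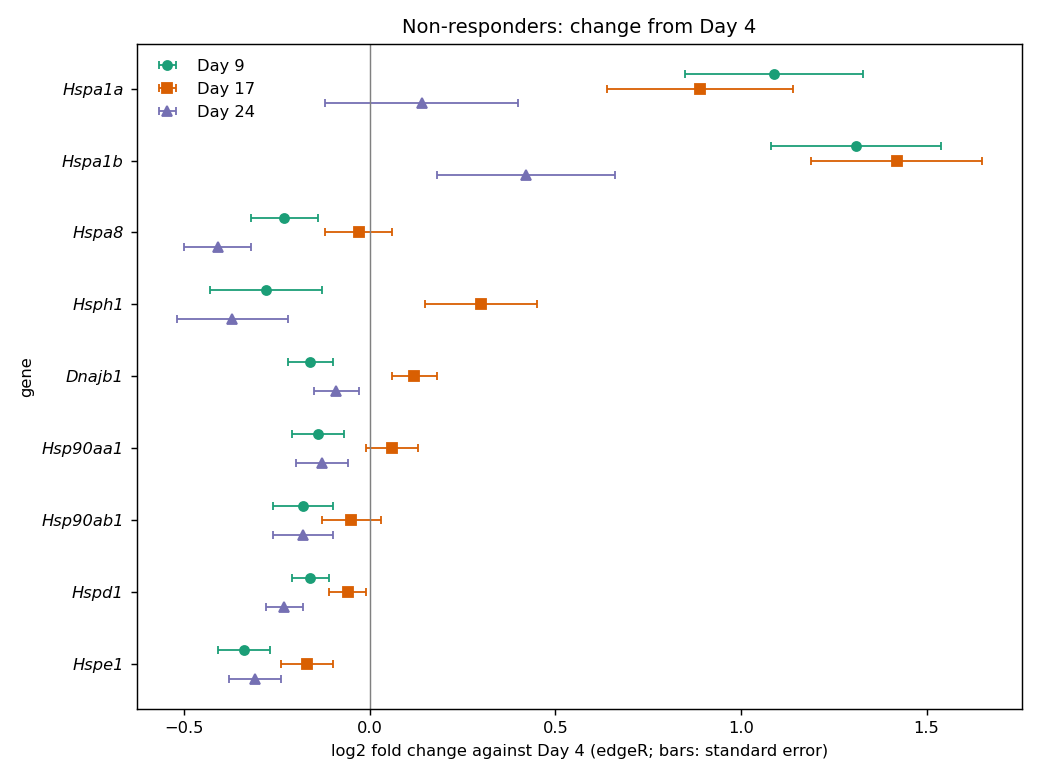
Log2 fold change against Day 4 of the 9 tested genes in non-responders (x axis) on Days 9, 17 and 24, with standard errors as bars. Hspa1a and Hspa1b lie right of 0 on Days 9 and 17, and Hspa8, Hsph1, Hspd1 and Hspe1 lie left of 0 on Day 24.

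Responders and non-responders were compared on Days 9 and 24, whose responder libraries took no part in the choice. On Day 9, Hspa1b had 0.187, 0.466 and 1.04 CPM in responders, within the range of the non-responders except for 1 library below it, and its log2 fold change was -0.57 (SE 0.28, edgeR unadjusted p = 0.0467, adjusted p = 0.191), with -0.51 (SE 0.25, adjusted p = 0.184) for the summed pair. No member passed an adjusted p of 0.05 with a 1.5-fold change, against 3.65% of all genes, and DESeq2 called none. Within the series, Hspa1b on Day 9 was -1.18 (SE 0.35, adjusted p = 0.27) in 4-digit mice and -0.20 (SE 0.46, adjusted p = 0.94) in 3-digit mice, and -0.76 (adjusted p = 0.126) with the series as a covariate. Of the erythroid markers, 8 of 9 were called higher in responders on Day 9, with a median summed level of 1063641 CPM against 627413 CPM. On Day 24, no member was called by edgeR or DESeq2, none was under an unadjusted p of 0.05, and 0.297% of all genes were called. Hspa1b was then 0.357 CPM in responders and 0.365 CPM in non-responders at the median, -0.11 and -0.26 on the log2 scale within the 3- and 4-digit series, and the summed pair was at -0.03 (SE 0.22).

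The contrast that chose the genes, Day 17 against Day 4 in responders, had all 9 fitted members above 0, with a median log2 fold change of 0.30 against 0.01 for all genes. Hspa1b went from 0.184, 0.301 and 0.631 CPM to 0.139, 1.82 and 3.84 CPM, a log2 fold change of 2.20 (SE 0.30), Hspa1a had 1.58 (SE 0.36), the summed pair 1.95 (SE 0.30) and Hsph1 0.84 (SE 0.17). The other members lay between 0.08 (Hspe1) and 0.39 (Hsp90aa1). Hspa1b was higher in 11 of 14 mice. On the other days against Day 4 the median member was at -0.21 (Day 9) and -0.27 (Day 24) in responders. The Day 17 values did not form one group, since the 3 mice in which Hspa1b was lower all had 3-digit tags.

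Set out by ear tag series, the Day 17 libraries of the 2 series lay apart for some members, and within each series the response groups overlapped. Among non-responders, 4-digit libraries above every 3-digit one were 7 of 7 for Hsph1 and Hsp90ab1, but 2 of 7 for Hspa1a, 1 of 7 for Hspe1 and 0 of 7 for Dnajb1. Among responders they were 10 of 10 for 8 of the 9 members fitted and 3 of 10 for Hspe1. These responder libraries took part in the choice of the set. The share of all genes that lie apart in this way was not counted, here or for the other overlaps of groups given. Hspa1b on Day 17 had 1.2, 1.95 and 3.84 CPM (lowest, median, highest) in 10 responders with 4-digit tags and 1.32, 1.93 and 2.48 CPM in 7 non-responders with 4-digit tags. The 4 responders with 3-digit tags had 0.64, 0.311, 0.139 and 0.235 CPM, and the 23 non-responders of that series 0.198, 0.468 and 1.47 CPM. All 10 of the 4-digit responders were above all 4 of the 3-digit responders, and 5 of 7 of the 4-digit non-responders above every 3-digit non-responder.

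Hsph1, the nucleotide exchange partner of HSP70, separated completely by ear tag series on Day 17. How many of all genes separate as fully was not counted, so whether this is particular to chaperone genes was not tested. Hsph1 had 16.8, 20.6 and 30.4 CPM in 4-digit responders and 16.8, 20.9 and 26.7 CPM in 4-digit non-responders. In the 3-digit series it had 8.32, 10.1, 6.82 and 4.16 CPM in the 4 responders and 4.83, 7.92 and 14.8 CPM in the non-responders. Hsp90ab1 separated completely too, at 142 to 220 CPM and 142 to 185 CPM in the 4-digit responders and non-responders against 92.2 to 107 CPM and 85.2 to 133 CPM in the 3-digit ones.

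Hspa8 on Day 17 had a lowest value of 204 CPM and a median of 230 CPM in 4-digit responders, each of them above every 3-digit responder, and 204, 228 and 250 CPM in 4-digit non-responders, against 126, 142, 134 and 108 CPM in the 3-digit responders and 102, 136 and 207 CPM in the 3-digit non-responders. Non-responder 15 held the highest 3-digit values of Hspa8 (207 CPM), Hspa1b (1.47 CPM), Hsph1 (14.8 CPM) and Hsp90aa1 (45.2 CPM), and was the one library of that series to reach into the 4-digit range of Hspa8. On Day 4 the series overlapped, with Hspa8 at 111, 156 and 194 CPM in 4-digit and 103, 149 and 291 CPM in 3-digit non-responders. Hsph1 on Day 4 was 6.26, 13.1 and 14 CPM in 4-digit and 4.97, 7.96 and 12.8 CPM in 3-digit non-responders.

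**Figure D4:**
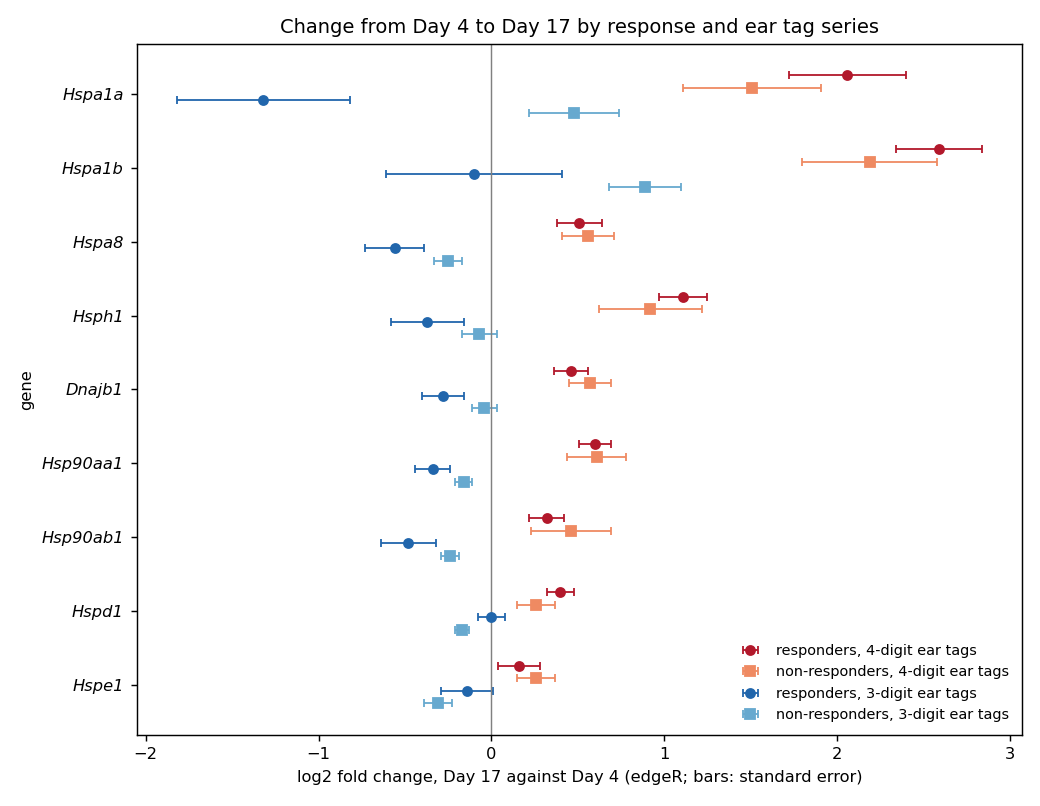
Log2 fold change from Day 4 to Day 17 of the 9 fitted genes (x axis), fitted within each response group and ear tag series, with standard errors as bars. Both 4-digit groups lie right of 0 for every gene, and the 3-digit responders lie at or left of 0.

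Fitted within the 4-digit series, responders had a log2 fold change from Day 4 to Day 17 of 2.59 (SE 0.25) for Hspa1b, 2.06 (SE 0.34) for Hspa1a and 1.11 (SE 0.14) for Hsph1, and the other members lay between 0.16 (Hspe1) and 0.60 (Hsp90aa1). In the 3-digit series the 4 responders had -0.10 (SE 0.51) for Hspa1b, -1.32 (SE 0.50) for Hspa1a, -0.56 for Hspa8 and -0.48 for Hsp90ab1, with a median member at -0.34. Within mice of the 4-digit series, Hspa1b was higher on Day 17 in 10 of 10 responders and 7 of 7 non-responders, and within the 3-digit series in 1 of 4 and 19 of 22.

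Among 4-digit non-responders alone, 6 members were called higher on Day 17 than on Day 4, where 12.7% of genes were called (6.72% higher, 6.03% lower). These were Hspa1b (2.19, SE 0.39, edgeR adjusted p = 4.86e-04), Hspa1a (1.51, adjusted p = 0.0147), Hsph1 (0.92, adjusted p = 0.0458), Hsp90aa1 (0.61, adjusted p = 0.0171), Dnajb1 (0.57, adjusted p = 0.00232) and Hspa8 (0.56, adjusted p = 0.0183). Among 3-digit non-responders, Hspa1b was called higher (0.89, SE 0.21, edgeR adjusted p = 2.69e-04) while Hspa8 (-0.25), Hsp90aa1 (-0.16), Hsp90ab1 (-0.24), Hspd1 (-0.17) and Hspe1 (-0.31) were called lower, where 51.4% of genes were called (23.6% higher, 27.8% lower).

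On the other days the non-responders of the 2 series also differed in what was called. On Day 9 against Day 4, Hspa1b was the 1 member called in the 4-digit series (1.46, SE 0.40, edgeR adjusted p = 0.0132), where 14.3% of genes were called (8.09% higher, 6.2% lower), and Hspa8 (0.22), Hsp90ab1 (0.21) and Hsp90aa1 (0.14) were not. Hspa1b was higher in 6 of 7 of these mice, but non-responders 25 and 26 stood out on Day 9 with 2.55 and 1.93 CPM. The others held 0.298 to 0.925 CPM, and whether the call holds without these 2 mice was not tested. In the 3-digit series all 9 were called, where 53.8% of genes were (25.2% higher, 28.7% lower). Hspa1b (edgeR adjusted p = 2.20e-07) and Hspa1a (1.22, SE 0.25, adjusted p = 1.71e-05) were higher there, and the 7 others lower, from -0.23 (Dnajb1, Hsp90aa1 and Hspd1) to -0.44 (Hspe1). On Day 24 against Day 4, Hsph1 was at -0.83 (SE 0.31, adjusted p = 0.134) and Hspa8 at -0.36 (adjusted p = 0.191) in the 4-digit series and neither was called, where 3.96% of genes were (3.03% higher, 0.931% lower). In the 3-digit series Hspa8 (-0.43), Hspe1 (-0.39), Hsp90ab1 (-0.34), Hspd1 (-0.24) and Hsp90aa1 (-0.20) were called lower on that day, where 52% of genes were called (23.6% higher, 28.4% lower). The smaller number of 4-digit mice limits what could be called there.

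The difference between the series was then tested itself, in non-responders only, as an interaction of series and day. This test was chosen after the values within each series had been seen, but it uses no responder library. For 8 of 9 members the change from Day 4 to Day 17 was called higher in the 4-digit series than in the 3-digit one, where 12.6% of all 13984 genes were called (9.47% higher, 3.1% lower). The difference on the log2 scale was 1.32 for Hspa1b (SE 0.43, edgeR adjusted p = 0.0279), 1.02 for Hsph1 (SE 0.24, adjusted p = 0.00242), 0.85 for Hspa8 (SE 0.18, adjusted p = 3.72e-04) and 0.81 for Hsp90aa1 (SE 0.13, adjusted p = 2.12e-06). Hsp90ab1 differed by 0.74, Dnajb1 by 0.64, Hspe1 by 0.61 and Hspd1 by 0.47, all called, although Hsp90ab1, Hspd1 and Hspe1 were called lower in the 3-digit series and not called higher in the 4-digit one. Hspa1a, at 1.07 (SE 0.50, adjusted p = 0.145), was not called. The median member stood at 0.81 and the median gene at 0.04. From Day 4 to Day 9 only Hspa8 was called (0.64, SE 0.18, edgeR adjusted p = 0.0459, against 0.98% of genes, 0.729% higher and 0.25% lower), and with mouse as a block, or without non-responder 25 (0.42), it was not. From Day 4 to Day 24 only Hsp90ab1 was called (0.63, SE 0.16, adjusted p = 0.00311, against 15.6% of genes, 12.3% higher and 3.29% lower), and without the odd library of non-responder 29 it was not.

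Other genes were examined beside the members over the same interaction. Of 48 tested genes of the wider chaperone network, 17 had a change from Day 4 to Day 17 called higher in the 4-digit series and none lower, although over all non-responders more of the list was called lower (20) than higher (5) on that day. Of all genes 9.47% were called higher and 3.1% lower. From Day 4 to Day 9, 4 network genes were called higher and 0 lower, where 0.729% and 0.25% of all genes were. Cct5, Hspbp1 and Fkbp4 were among these 4. From Day 4 to Day 24, 12 network genes were called higher and 1 lower, where 12.3% and 3.29% of all genes were. To Day 24, 9 of 9 erythroid and 10 of 10 platelet markers were also called higher, in a fit that holds the odd library of non-responder 29. By role the 17 of Day 17 were 6 of 8 HSP90 co-chaperones, 5 of 8 subunits of the cytosolic chaperonin CCT, 2 of 9 J proteins, 2 of 7 HSP70 co-chaperones, 1 of 6 other HSP70 proteins, 1 of 3 regulators and 0 of 5 mitochondrial partners. The smallest p-values were those of St13, an HSP70 cofactor (0.65, SE 0.11, edgeR adjusted p = 9.97e-06), Stip1 (0.92, SE 0.16, adjusted p = 1.17e-05) and Chordc1, which binds HSP90 (0.58, SE 0.11, adjusted p = 9.24e-05). Of 14 chaperones of the endoplasmic reticulum, which HSF1 is not the main regulator of, 10 had a higher change to Day 17 in the 4-digit series. The smallest p-values were those of Hsp90b1 (0.43, edgeR adjusted p = 1.94e-04), Pdia3 (0.43) and Hspa5 (0.42). Over all non-responders, 8 of the 14 were called lower and none higher on Day 17, where 24.2% and 21.9% of all genes were. Against Day 4 they were 5 higher and 2 lower on Day 9 (23.3% and 27.5% of all genes). On Day 24 they were 0 higher and 12 lower (23.8% and 24.8%).

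Markers moved with the series as well. Over the same interaction the change was called higher in the 4-digit series for 8 of 10 platelet, 7 of 10 T cell and 4 of 10 NK cell markers and 2 of 10 immediate early genes, and lower for 2 of 10 B cell markers. This is a difference of changes, since over all non-responders 10 of 10 T cell and 8 of 10 NK cell markers were called lower on Day 17 than on Day 4. On Day 17 the summed platelet markers had 680, 825 and 1624 CPM in 4-digit and 354, 624 and 1020 CPM in 3-digit non-responders. The summed T cell markers had 123 to 179 CPM and 111 to 165 CPM, and the immediate early genes 46.6 to 79 CPM and 39.3 to 75.2 CPM. Haemoglobin took 79.2% to 85.1% and 77.1% to 86.7% of counts. The part of these in the chaperone values was not tested, and what differs between the series, other than the tags, cannot be told apart here.

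Responders against non-responders on Day 17, a description for the reason given above, changed with the series in the fit. With all mice and no covariate, Hspa1a was at 1.02 (SE 0.35), Hspa1b at 0.96 (SE 0.32), the summed pair at 0.98 (SE 0.32) and Hsph1 at 0.68 (SE 0.23), with a median member at 0.37. With the series as a covariate, Hspa1a was at -0.08 (SE 0.27), Hspa1b at -0.09 (SE 0.21) and Hsph1 at -0.03, and the other members lay between -0.06 (Dnajb1) and 0.26 (Hspe1). Within the 4-digit series alone Hspa1b was at 0.20 (SE 0.20) and Hspa1a at 0.33 (SE 0.21), and within the 3-digit series at -0.79 (SE 0.39) and -1.18 (SE 0.55), the latter from 4 responders. Counting the doubly labelled Day 17 library of non-responder 24 as a responder gave 1.00 for Hspa1b and 0.99 for Hspa1a without the covariate.

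**Figure D5:**
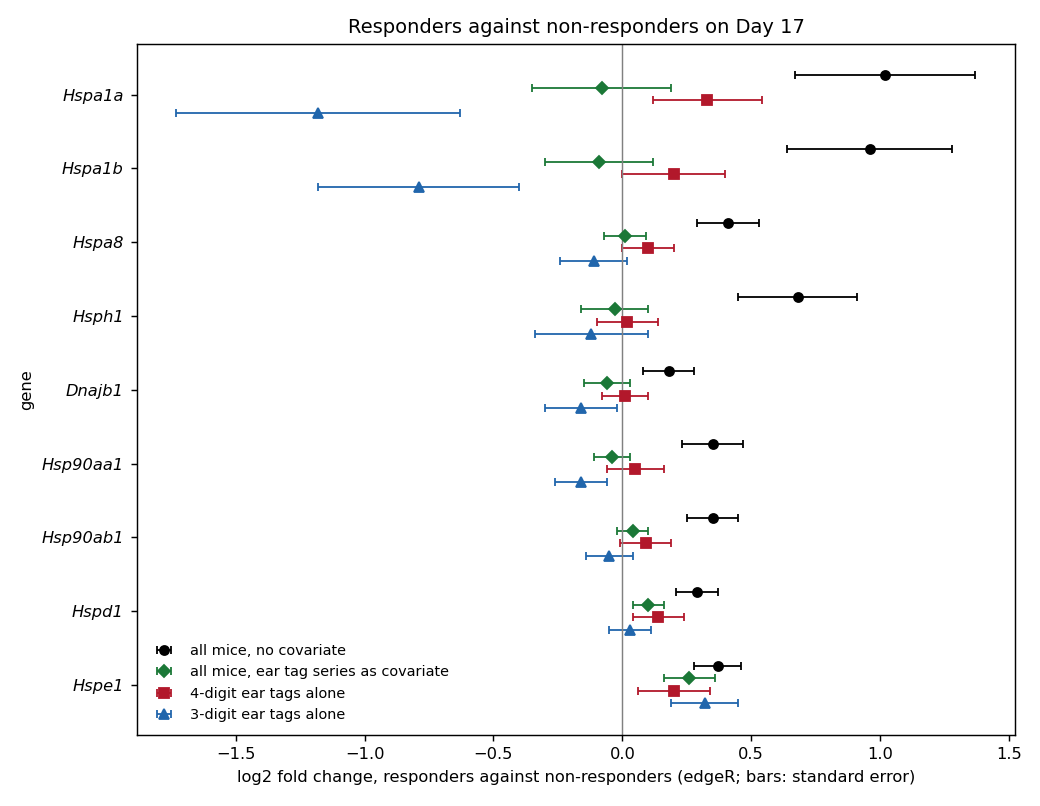
Log2 fold change of responders against non-responders on Day 17 (x axis) for the 9 fitted genes, with standard errors as bars, for all mice, for all mice with the ear tag series as a covariate, and within each series. The black points lie right of 0 for every gene, from 0.18 to 1.02, and the green points lie from -0.09 to 0.26.

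Over all non-responders, called genes of the rest of the chaperone network were mostly lower. Of its 48 tested genes, 1 was called higher and 25 lower on Day 9, 5 and 20 on Day 17, and 6 and 23 on Day 24, all against Day 4. Of all genes 23.3% were called higher and 27.5% lower on Day 9, 21.9% and 24.2% on Day 17, and 23.8% and 24.8% on Day 24. On Day 9 the CCT subunits (6 of 8 lower), the mitochondrial partners (5 of 5) and the HSP90 co-chaperones (5 of 8) led, with Hspbp1 (-0.42, SE 0.05, edgeR adjusted p = 1.09e-11), Hspa9, the mitochondrial HSP70 (-0.25, SE 0.03, adjusted p = 1.57e-11) and Unc45a (-0.27), and Bag2 (0.45, SE 0.18, adjusted p = 0.0297) was the 1 gene higher. On Day 17 Dnaja1 (0.35, SE 0.09), Hsf2 (0.21) and Dnajc7 (0.11) were among those higher and Cdc37, which brings kinases to HSP90 (-0.38, SE 0.05), Hspa9 (-0.23) and Hspbp1 (-0.35) among those lower. On Day 24 the J proteins Dnaja4 (1.10, SE 0.21) and Dnajb6 (0.98, SE 0.20) and the CCT subunit Cct7 (0.39, SE 0.13) rose. Cct5 (-0.39), Cdc37 (-0.36) and Cct2 (-0.28) fell. Of the erythroid markers, 3 of 9 were called higher on Day 9, 4 on Day 17 and 8 on Day 24.

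From Day 9 to Day 24, 10 network genes were called higher and 2 lower in non-responders (7 in all with mouse as a block), where 41.8% of all genes were called. Dnaja4 (0.77, SE 0.21), Dnajb6 (0.66, SE 0.19) and Lonp1 (0.11, SE 0.03) were among those higher, and Hspa4 (-0.09, SE 0.03) and Bag3 were the 2 lower. Bag3, an HSP70 co-chaperone of the heat shock response, fell by 0.55 (SE 0.09, edgeR adjusted p = 5.72e-07) in non-responders and by 0.52 (SE 0.16, adjusted p = 0.0151) in responders. In responders 5 network genes were called higher and 1 lower, where 19% of all genes were called. Hspa9 (0.17), Cct3 (0.21) and Tcp1 (0.18) were among those higher there. Of 14 chaperones of the endoplasmic reticulum, 11 were called lower in non-responders, where 20.6% of all genes were, among them Hspa5, its HSP70 (-0.43, SE 0.05, adjusted p = 9.54e-13), and Sdf2l1 (-0.65). In responders 1 was called higher, Pdia4 (0.27), and 2 lower, Sdf2l1 (-0.61) and Pdia6 (-0.25). On Day 9, 4 network genes were called higher in responders than in non-responders, where 3.65% of all genes were called, including the J proteins Dnajb2 (0.97, SE 0.17, edgeR adjusted p = 4.21e-05), Dnajb6 (0.80) and Dnaja4 (0.85), on the day when erythroid markers were higher too. Over all genes, edgeR called 460 on Day 9 without and 273 with the ear tag series as a covariate, and 347 in 3-digit and 0 of 11884 in 4-digit mice alone. The part of the series in these 4 was not tested. On Day 24, no network gene was called between the response groups.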

How the data were processed

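Whole blood was collected by retro-orbital bleeding into TRIzol, and polyA RNA was made into libraries with a SMARTer mRNA-Seq kit. The submitters' processing notes name STAR and mm10, and the counting tool, annotation and strand setting are not given in the sources used here. The authors deposited estimated counts per gene (10.3% of nonzero values are not whole), which were rounded before testing, and TPM values from the authors, which served for levels per length and as an alternative. Every column of both tables was used. Comparisons were fitted with edgeR 4.0.16 (R 4.3.3, TMM, filterByExpr, quasi-likelihood test, Benjamini-Hochberg adjustment over all genes). Called means an adjusted p of at most 0.05, and between response groups also a fold change of at least 1.5. A standard error is the absolute log2 fold change divided by the square root of F. Replicates are separate mice, bled repeatedly.

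The members and gene lists were chosen with earlier results of these data known. Of the genes called in each list, names were taken from the 3 higher and the 3 lower ones ranked first by p, and not all of these are given. For likeness, the 5 genes with the highest Spearman correlation over 178 libraries were named. Libraries of one mouse on different days were paired by ear tag and taken to come from the same animal. The mean correlation of their deviations from the group means ran from -0.07 to 0.133, and mouse was used as a block in an alternative. In simulated counts for non-responders on Day 17 against Day 4 (13008 genes), 64% of genes changed 1.25-fold and 96% of those changed 2-fold were recovered. For the difference between the ear tag series on Day 17 (13975 genes) these shares were 17.2% and 68%. Few genes were changed in these simulations, and libraries were drawn as independent. The shares are therefore not the recovery in the real comparisons, nor that of low counts such as those of Hspa1a and Hspa1b. Depth is given by the totals per library, and low counts limit Hspa1a, Hspa1b and Hspb1. Alternatives were DESeq2 1.42.0, other filters and scalings, log2 TPM with a pseudocount of 1 or 0.1 (limma 3.58.1), the ear tag series apart or as a covariate, 2 doubtful libraries, and each mouse left out. Gene positions are from the GENCODE annotation of GRCm38 and sequences from RefSeq on GRCm38.p6, and 7 of 10 members had an upstream window.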

Additional observations from a re-analysis of the deposited data

Results flagged for a closer look

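The change from Day 4 differed between the ear tag series within non-responders for the members listed here, tested as an interaction in edgeR and chosen after the values within each series were seen. All values are log2 differences, 4-digit minus 3-digit. From Day 4 to Day 17 they were 1.32 for Hspa1b, 1.02 for Hsph1, 0.85 for Hspa8, 0.81 for Hsp90aa1, 0.74 for Hsp90ab1, 0.64 for Dnajb1, 0.61 for Hspe1 and 0.47 for Hspd1. From Day 4 to Day 9 the value was 0.64 for Hspa8, and from Day 4 to Day 24 it was 0.63 for Hsp90ab1. Both of these calls were lost under alternatives, that of Hspa8 with mouse as a block (0.58) and without non-responder 25 (0.42), and that of Hsp90ab1 without non-responder 29 (0.18). The series hold 7 and 23 non-responders, and what sets them apart was not tested.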

How the results depend on the processing

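The rise of Hspa1a and Hspa1b in non-responders on Days 9 and 17 kept its direction under every setting tried, but Hspa1a was not called in 4-digit mice on Day 9 (0.81), or in 3-digit mice (0.48) or with TPM (0.03 and 0.15) on Day 17. Over 2491 values of single genes under the alternatives, 2290 kept their side of the threshold without a called value changing sign, 97 lost a call, 73 gained one, 30 reversed and 1 moved, and the cause was not tested. Of the values called neither as reported nor under the alternative, 192 had the other sign. Counts of members called changed by over 1.5 times as follows. Among 4-digit mice alone, 1 member was called in non-responders on Day 9, 6 on Day 17 and 0 on Day 24 against Day 4, and 1 on Day 24 against Day 9, with fewer samples. Among 3-digit mice alone, 6 were called on Day 17. With log2(TPM + 1) and log2(TPM + 0.1), 3 and 2 were called on Day 9, 7 and 6 on Day 17, 7 and 7 on Day 24, 8 and 9 on Day 24 against Day 9, and 3 and 7 between response groups on Day 9. With a 1.5-fold minimum, 2 were called on Day 9 and 0 on Day 24. Of the chaperone network, 4-digit mice alone gave 3 (Day 9), 6 (Day 17), 2 (Day 24) and 1 (Day 24 against Day 9), and 3-digit mice 5 for Day 24 against Day 9 in non-responders and 0 in responders. TPM gave 10 and 3 on Day 9, 39 on Day 17 (pseudocount 1), 45 and 45 on Day 24, 35 and 38 for Day 24 against Day 9, and 0 and 0 in responders. A 1.5-fold minimum gave 0, 0, 2 and 2 in non-responders and 0 in responders.

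With mouse as a block, network genes called for Day 24 against Day 9 in non-responders went to 7. In the difference between the series, members called went to 0 on Day 9 and 2 on Day 24. The block also added Hsph1 and Hsp90ab1 on Day 9, and Hsp90ab1 on Day 24, to the members called in non-responders. For the series difference on Day 9, DESeq2 called 2 members, the filter of 1 count 0, the fit without the Day 24 library of non-responder 29 called 3, and that without the Day 17 library of non-responder 24 called 0. On Day 24 it was 0 without the library of non-responder 29, with Hsp90ab1 at 0.17.

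Reversed values on the log2 scale were, in 4-digit non-responders on Day 9, Hspa8 0.22, Dnajb1 0.09, Hspd1 0.05 and Hspe1 0.00. Yet from Day 4 to Day 9 the 4-digit median fell for Hspa8 (156 CPM to 142 CPM) and Hspd1 (11.8 CPM to 10.7 CPM), and rose for Dnajb1 and Hspe1. On Day 17 the reversed values of that series were Hspa8 0.56 and Hspe1 0.26. In 3-digit mice Hsp90aa1 was -0.16 on Day 17. With TPM on Day 17, Dnajb1 was -0.17 and Hsp90aa1 -0.28 (pseudocount 1) and -0.33 (pseudocount 0.1). For Day 24 against Day 9, the same 2 pseudocounts gave Dnajb1 -0.17 and -0.33, Hsp90aa1 -0.32 and -0.39, Hsp90ab1 -0.46 and -0.49, and Hspe1 -0.28 and -0.40. For responders against non-responders on Day 9, Hsp90ab1 was -0.59 and -0.62 and Dnajb1 -0.62 (pseudocount 0.1). TPM moved the median of all genes by -0.14 and -0.29 on Day 17, -0.14 and -0.32 for Day 24 against Day 9, and -0.26 and -0.59 between response groups on Day 9. In the 4 responders with 3-digit tags, Day 17 against Day 4 gave a median of -0.34, with Hspa1a -1.32, Hspa1b -0.10, Hspa8 -0.56, Hsph1 -0.37, Dnajb1 -0.28, Hsp90aa1 -0.34, Hsp90ab1 -0.48, Hspd1 -0.00 and Hspe1 -0.14.

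With each mouse left out in turn, members called ran from 4 to 9 on Day 9, 2 to 3 on Day 17, 3 to 5 on Day 24 and 2 to 3 for Day 24 against Day 9 in non-responders. The series difference gave 0 to 2 (Day 9), 7 to 8 (Day 17, 7 without non-responder 26) and 0 to 2 (Day 24). Network genes called ran from 22 to 30, 21 to 30, 27 to 30 and 10 to 15 in non-responders and 3 to 8 in responders. No member was called in the comparisons of response groups on Days 9 and 24, in responders, or in the difference of changes. The responder median on Day 17 ran from 0.27 to 0.34. Low depth limits Hspa1a, Hspa1b and Hspb1, whose median counts per library were 15, 24 and 2.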

Other observations

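Within single libraries, the highest Hspa1b values of all 178 came from responder 11 (3.84 CPM) and responder 9 (2.73 CPM) on Day 17, non-responder 25 on Day 9 (2.55 CPM), non-responder 28 on Day 17 (2.48 CPM) and non-responder 25 on Day 17 (2.29 CPM). Among 4-digit non-responders, the within-mouse log2 change of Hspa1b from Day 4 to Day 17 ran from 0.93 to 3.37, and among 4-digit responders from 1.61 to 4.20.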
